A study of Mus musculus with 4 samples.

Results

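The Wnt pathway genes described here are 50 mouse genes: 12 Wnt ligands, 9 Frizzled receptors with the co-receptors Lrp5 and Lrp6, 7 secreted inhibitors with their partner Kremen1, 5 genes of the R-spondin axis, 8 cytoplasmic transducers, 2 feedback adaptors and 4 TCF/LEF transcription factors. They were chosen by name, with earlier results of these data known. Every probe set whose platform symbol was 1 of these genes was taken. This gave 110 of the 45037 probe sets that are not controls and 49 of the 18193 genes with a probe set of their own. Tcf7 had no probe set of its own, so its signal was not analysed, and only its RefSeq start windows were counted. The samples were unstimulated cells of L929, a long-established line of fibroblasts from connective tissue of C3H mice, and unstimulated cells of NIH3T3, a line of fibroblasts from embryos of Swiss mice, with 2 arrays (replicates 1 and 2) for each. The labels name no treatment and no genetic change in either line. The series title calls L929 sensitive to necrosis and NIH3T3 sensitive to apoptosis. With 1 line of each kind, a difference tied to the form of cell death cannot be told apart from any other difference between the lines.

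Wnt proteins are secreted, lipid-modified ligands that bind Frizzled receptors on the cell surface. In the canonical branch the co-receptors LRP5 and LRP6 join the complex, Dishevelled is recruited, the destruction complex of Axin, APC and GSK3 is held off, and beta-catenin enters the nucleus and acts through TCF/LEF factors. In the non-canonical branches Wnt5a and related ligands act through Frizzled, ROR and PTK7 receptors on cell polarity and movement. In fibroblasts and other mesenchymal cells the pathway is known for its part in proliferation, matrix production and the choice between bone and fat fates.

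Each value is a MAS5 signal of 1 probe set, in arbitrary units, after the 4 arrays were scaled to a common trimmed mean. As deposited, the L929 arrays had median signals of 23.5 and 24.0, and those of NIH3T3 had 23.9 and 38.3. Over the 27438 probe sets tested, Pearson's r of the scaled log2 signals was 0.982 for the L929 pair and 0.981 for the NIH3T3 pair. Arrays of different lines reached 0.835 to 0.843. Probe sets are not independent, so these values only describe the arrays. Of 16 fibroblast markers, 13 lay above the filter level of 17.3 on both L929 arrays and 15 on both NIH3T3 arrays, with the signals of Vim, S100a4 and Col1a2 the brightest. Of the 15 tested, 3 were called higher in L929 (Col5a1, Col6a1 and Pdgfrb, 1.51-fold, 2.38-fold and 1.99-fold) and 6 lower. Of all genes tested, 17.3% were called higher and 17.6% lower. Among the fibroblast markers called lower, Thy1, Dcn and Lum were dim in L929. They had 18.0 and 30.0, 19.0 and 2.78, and 13.4 and 22.7 there, against 2193 and 2253, 1382 and 1572, and 548 and 819 in NIH3T3. Of 8 endothelial markers 1 was above the level on both L929 arrays and 0 on both NIH3T3 arrays, and of 8 epithelial markers 3 and 3. Of 8 macrophage and leukocyte markers 6 and 4 were above it, with summed signals of 244 to 275 in L929 and 443 to 455 in NIH3T3, and the part of other cell types in the results was not tested. In bulk RNA, fewer cells that express a gene and less RNA per cell cannot be told apart. Whether the replicates came from separate cultures is not stated in the labels. The p-values therefore measure the spread between these arrays, which may be technical, and 2 arrays per line limit the precision.

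The largest differences between the lines lay in receptors and secreted proteins of the pathway. Fzd2, Fzd1, Dkk3, Dkk2 and Wnt5a were many times lower in L929, while Fzd4, Wnt5b, Tcf7l1, Wnt10a and Fzd7 were higher, and beta-catenin, Gsk3b and Axin2 did not pass the test. A gene entered the test when 1 or both lines had 2 arrays above the filter level. It was called where limma's p, adjusted by Benjamini-Hochberg over all 12676 genes tested, was under 0.05 and the fold was above 1.5. Folds come from log2(signal + 8.01), a scale that understates the change of dim genes, and "at least" marks a bound, the brighter line's mean signal over the filter level. Of the 50 genes, 39 were tested, of which 5 were called higher and 13 lower in L929, or 46.2%, beside 34.8% of all genes tested (17.3% higher and 17.6% lower). The 50 genes were chosen with earlier results of these data known, so these shares are not an unbiased comparison. Without scaling, 2 of the genes were higher and 13 lower, beside 794 higher and 1745 lower of all genes tested, against 2187 and 2228 with it. The median log2 difference was -0.40 over the 39 genes and 0.014 over all genes tested. The count depends in part on how genes passed the filter: 12 of the 39 passed through NIH3T3 alone, where 9 were called, all lower (50.9% of all genes of that kind were called), and 3 through L929 alone, where 1 was called. Among the 24 genes above the level in both lines, 4 were higher and 4 lower, or 33.3%, beside 31.5% of all genes of that kind. The signals of the lines did not overlap for 28 of the 39 tested genes, beside 73.8% of all genes tested. Calls gained or lost without 1 array rest on a line with a single array, assumed to vary like the other line. Of the 21 tested genes that were not called, 4 passed the p-value and missed the fold, and 17 missed the p-value.

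**Figure D1:**
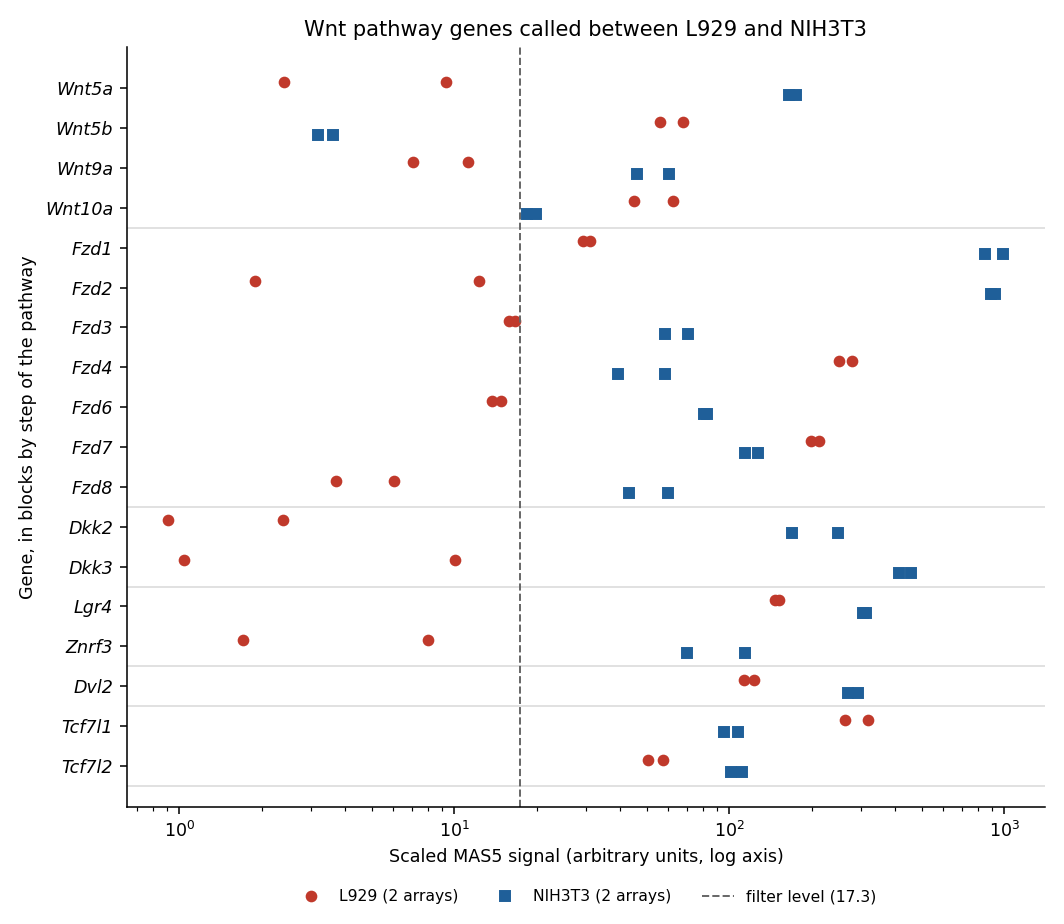
Scaled MAS5 signal (log axis, arbitrary units) of the 18 called genes on each of the 2 L929 arrays (circles) and 2 NIH3T3 arrays (squares), in blocks by step of the pathway, with the filter level of 17.3 as a dashed line. In 9 of the 13 genes lower in L929 both L929 arrays lie below that level, and the arrays of the lines do not overlap for any gene shown.

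The other 10 genes were too dim to be tested. They were the ligands Wnt2, Wnt4 and Wnt16, the receptor Fzd9, the inhibitors Sfrp2, Dkk1 and Wif1, the R-spondins Rspo1 and Rspo3, and the Dishevelled gene Dvl3. Their brightest probe sets gave signals of 0.302 to 23.4 over the 4 arrays. A dim signal does not show that a gene is silent, since a probe set can also hybridise poorly.

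Of the 9 tested ligands 2 were higher and 2 lower in L929 (22.2% each), beside 17.3% higher and 17.6% lower of all genes tested. Both lower ligands, Wnt5a and Wnt9a, passed the filter through NIH3T3 alone, where 50.9% of all genes were called. Wnt5b, called higher, passed through L929 alone, where 47.4% of all genes were called. The closely related pair Wnt5a and Wnt5b went in opposite directions. Wnt5a, the prototype of the non-canonical ligands, had signals of 2.40 and 9.35 in L929 and 175 and 165 in NIH3T3. Both L929 arrays lay below the filter level, so the difference is a bound, at least 9.86-fold lower in L929 (adjusted p = 2.98e-05). Wnt5b had signals of 67.8 and 55.8 in L929 and 3.20 and 3.61 in NIH3T3, at least 3.57-fold higher (adjusted p = 1.73e-04). Here the NIH3T3 arrays were the ones below the level, and a further probe set of Wnt5b gave 64.4 and 54.6 in L929 against 1.45 and 2.05 in NIH3T3.

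RefSeq (GRCm38.p6) lists 3 start windows for Wnt5b, each running from 250 bases before to 50 bases after a transcript start. The window at chr6:119449337-119449636, minus strand, is shown because it holds a match to the core letters of the TCF/LEF site, CTTTGAT, whose first letter lies 71 bases before the start. Capitals mark this match and 2 matches to the GC box GGGCGG on either strand.
Wnt5b: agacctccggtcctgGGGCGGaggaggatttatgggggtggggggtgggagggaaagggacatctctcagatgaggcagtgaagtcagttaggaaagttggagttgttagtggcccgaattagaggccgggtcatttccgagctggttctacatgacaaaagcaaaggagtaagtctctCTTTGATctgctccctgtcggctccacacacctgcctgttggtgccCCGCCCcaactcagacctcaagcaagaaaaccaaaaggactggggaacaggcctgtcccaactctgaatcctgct
Of the 50 genes, 32 matched a RefSeq window by symbol. Of their 41 windows, 3 (1 each of Dkk1, Wnt11 and Wnt5b) held CTTTGAT or CTTTGAA on either strand. The other windows of Wnt5b held 0 such matches. Of all 32851 mouse windows, 8.65% held such letters. A match is a description of the letters and not a site shown to be bound.

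Wnt9a and Wnt10a, ligands mostly linked to the canonical branch, also went in opposite directions. Wnt9a had signals of 7.10 and 11.3 in L929 and 46.0 and 60.5 in NIH3T3, and was at least 3.06-fold lower (adjusted p = 0.00142). Wnt10a had signals of 45.0 and 62.2 in L929 and 18.3 and 19.8 in NIH3T3, and was 2.26-fold higher (log2 difference 1.17, 95% interval 0.53 to 1.82, adjusted p = 0.00897). The NIH3T3 arrays of Wnt10a sat just above the filter level, and its call was lost without L929 replicate 2 (adjusted p = 0.0696) or without scaling (adjusted p = 0.126).

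The other 5 tested ligands were dim and not called. Wnt6 had signals of 31.0 and 43.8 in L929 against 69.3 and 55.5 in NIH3T3, a log2 difference of -0.64 (95% interval -1.25 to -0.03, adjusted p = 0.0796). Wnt11, a ligand of convergent extension movements, had 19.3 and 11.9 against 23.5 and 32.4, a log2 difference of -0.61 (-1.35 to 0.12). The arrays of the lines did not overlap for Wnt6 and Wnt11, nor did they for 73.8% of all genes tested, and both differences missed the threshold. Wnt10b, a ligand that restrains fat cell formation, differed by 0.48 (-0.29 to 1.25), Wnt2b by 0.33 (-0.85 to 1.51) and Wnt7b by 0.015 (-0.61 to 0.64) on the log2 scale. The arrays of the lines overlapped for these 3 genes, and the intervals leave room for a change of more than 1.5-fold in at least 1 direction.

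The Frizzled receptors have a cysteine-rich domain that binds Wnt and a membrane-spanning part that signals to Dishevelled. Of the 8 tested, 5 were lower in L929, 2 were higher and 1 was not called. Of all genes tested, 17.6% were lower and 17.3% higher. Among the lower receptors, Fzd2, Fzd3, Fzd6 and Fzd8 passed the filter through NIH3T3 alone, where 50.9% of all genes were called. Fzd2, a receptor that can bind Wnt5a, had signals of 1.88 and 12.3 in L929 and 924 and 892 in NIH3T3, and was at least 52.6-fold lower (adjusted p = 2.31e-06). Its other probe sets gave at least 40.6-fold and at least 25.7-fold lower. Fzd1, a close relative of Fzd2 and Fzd7, had 29.4 and 31.2 in L929 and 848 and 992 in NIH3T3, and was 24.2-fold lower (log2 difference -4.59, 95% interval -4.92 to -4.27, adjusted p = 1.69e-07). On this probe set the Fzd1 signal in L929 stayed above the filter level on both arrays. Another Fzd1 probe set, with 8.72 and 12.3 in L929 and 137 and 168 in NIH3T3, was at least 8.78-fold lower, and the mean of both gave a log2 difference of -3.85.

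The dimmer members of the family were lower as well. Fzd6, which acts in hair and skin polarity, had signals of 13.7 and 14.8 in L929 and 82.8 and 80.6 in NIH3T3, and was at least 4.73-fold lower (adjusted p = 3.25e-04). Fzd3, known for axon guidance, had 15.9 and 16.6 in L929 and 58.5 and 70.8 in NIH3T3, and was at least 3.73-fold lower (adjusted p = 0.00156). Fzd8, a receptor that signals through beta-catenin, had 3.72 and 6.03 in L929 and 59.8 and 43.0 in NIH3T3, and was at least 2.94-fold lower (adjusted p = 6.33e-04). In these 3 genes both L929 arrays lay below the filter level, those of Fzd3 narrowly, and averaging the Fzd6 probe sets lost its call (adjusted p = 0.0879).

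Fzd4 and Fzd7 were the receptors higher in L929. Fzd4, which responds to Wnt ligands and to the unrelated protein norrin, had signals of 279 and 249.5 in L929 and 58.1 and 39.5 in NIH3T3, and was 4.85-fold higher (log2 difference 2.28, 95% interval 1.81 to 2.75, adjusted p = 4.95e-05). Its second tested probe set gave 139 and 148 in L929 and 38.2 and 37.0 in NIH3T3, 3.32-fold higher. Fzd7 had 211 and 198 in L929 and 127 and 114 in NIH3T3, and was 1.66-fold higher (log2 difference 0.73, 95% interval 0.39 to 1.06, adjusted p = 0.00386). Another Fzd7 probe set was not called, with a log2 difference of -0.34. The Fzd7 call was lost without scaling (adjusted p = 0.559) and when its probe sets were averaged (adjusted p = 0.555). Fzd5 was not called, at 96.7 and 93.7 in L929 against 167 and 98.5 in NIH3T3, and it was called lower without NIH3T3 replicate 2 (adjusted p = 0.0172).

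The start windows of the relatives Fzd1 and Fzd7 and of Fzd4 are shown because these receptors were measured well above the filter level in at least 1 line and went in opposite directions, Fzd1 lower and the others higher in L929. No window matched Fzd2, Fzd3, Fzd6 or Fzd8 by symbol, so Fzd1 was the only Frizzled gene lower in L929 that could be shown. Capitals mark GGGCGG and TATAAA on either strand, and overlapping GGGCGG matches share letters. Fzd1 lies at chr5:4758167-4758466, minus strand, Fzd4 at chr7:89404116-89404415, plus strand, and Fzd7 at chr1:59481897-59482196, plus strand.
Fzd1: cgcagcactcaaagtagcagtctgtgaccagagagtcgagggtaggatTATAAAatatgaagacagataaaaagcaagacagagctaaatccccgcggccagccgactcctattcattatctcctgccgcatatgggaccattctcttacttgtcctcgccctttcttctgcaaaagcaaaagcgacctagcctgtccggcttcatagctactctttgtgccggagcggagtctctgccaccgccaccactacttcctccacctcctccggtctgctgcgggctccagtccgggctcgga
Fzd4: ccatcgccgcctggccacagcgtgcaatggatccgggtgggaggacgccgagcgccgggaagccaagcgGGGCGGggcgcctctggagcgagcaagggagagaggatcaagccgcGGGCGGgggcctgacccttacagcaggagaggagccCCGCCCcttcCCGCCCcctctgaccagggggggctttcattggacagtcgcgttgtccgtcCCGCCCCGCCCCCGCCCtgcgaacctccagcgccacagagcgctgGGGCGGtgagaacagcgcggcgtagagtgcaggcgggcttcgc
Fzd7: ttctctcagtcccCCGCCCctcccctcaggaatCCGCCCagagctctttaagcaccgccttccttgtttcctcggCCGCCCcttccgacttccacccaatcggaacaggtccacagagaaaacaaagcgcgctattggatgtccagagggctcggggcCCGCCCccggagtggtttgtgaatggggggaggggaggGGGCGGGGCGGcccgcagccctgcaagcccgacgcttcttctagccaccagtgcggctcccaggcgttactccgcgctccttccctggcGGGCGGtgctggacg
The window of Fzd1 held 0 matches to GGGCGG and 1 to TATAAA, 202 bases before the start. Those of Fzd4 and Fzd7 held 8 and 7 matches to GGGCGG and 0 to TATAAA. Of the other genes lower in L929 with a window, Wnt9a, Dvl2 and Dkk2 held 5, 4 and 2 matches to GGGCGG. Lgr4 held 0, and the windows of Tcf7l2 held 6 and 0. Higher in L929, Tcf7l1 held 2 and the windows of Wnt5b 2, 0 and 3. Fzd5, not called, held 10. GC content was 54% for Fzd1, 72.7% for Fzd4 and 66.7% for Fzd7. The median was 52.7% over all windows and 66.7% over the windows of these pathway genes. Of all 32851 windows 35.7% held GGGCGG and 13.6% held TATAAA. Of the 41 windows of these pathway genes, 28 held GGGCGG and 10 held TATAAA. Nothing is drawn from these letters about the factors that bind them.

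The co-receptors were not called, and their differences were smaller than those of most Frizzled genes. Lrp6 had signals of 132 and 122 in L929 and 190.2 and 186 in NIH3T3, a log2 difference of -0.54 (95% interval -0.87 to -0.21). Its p-value passed (adjusted p = 0.0145) and its 1.45-fold difference did not reach the fold threshold, and it was called lower without L929 replicate 1 (adjusted p = 0.0292). Lrp5 had 46.4 and 74.6 in L929 and 46.5 and 45.0 in NIH3T3, a log2 difference of 0.32 (-0.31 to 0.95, adjusted p = 0.374). The Lrp5 arrays overlapped, and an excess of up to 1.93-fold in L929 lay within its interval.

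**Figure D2:**
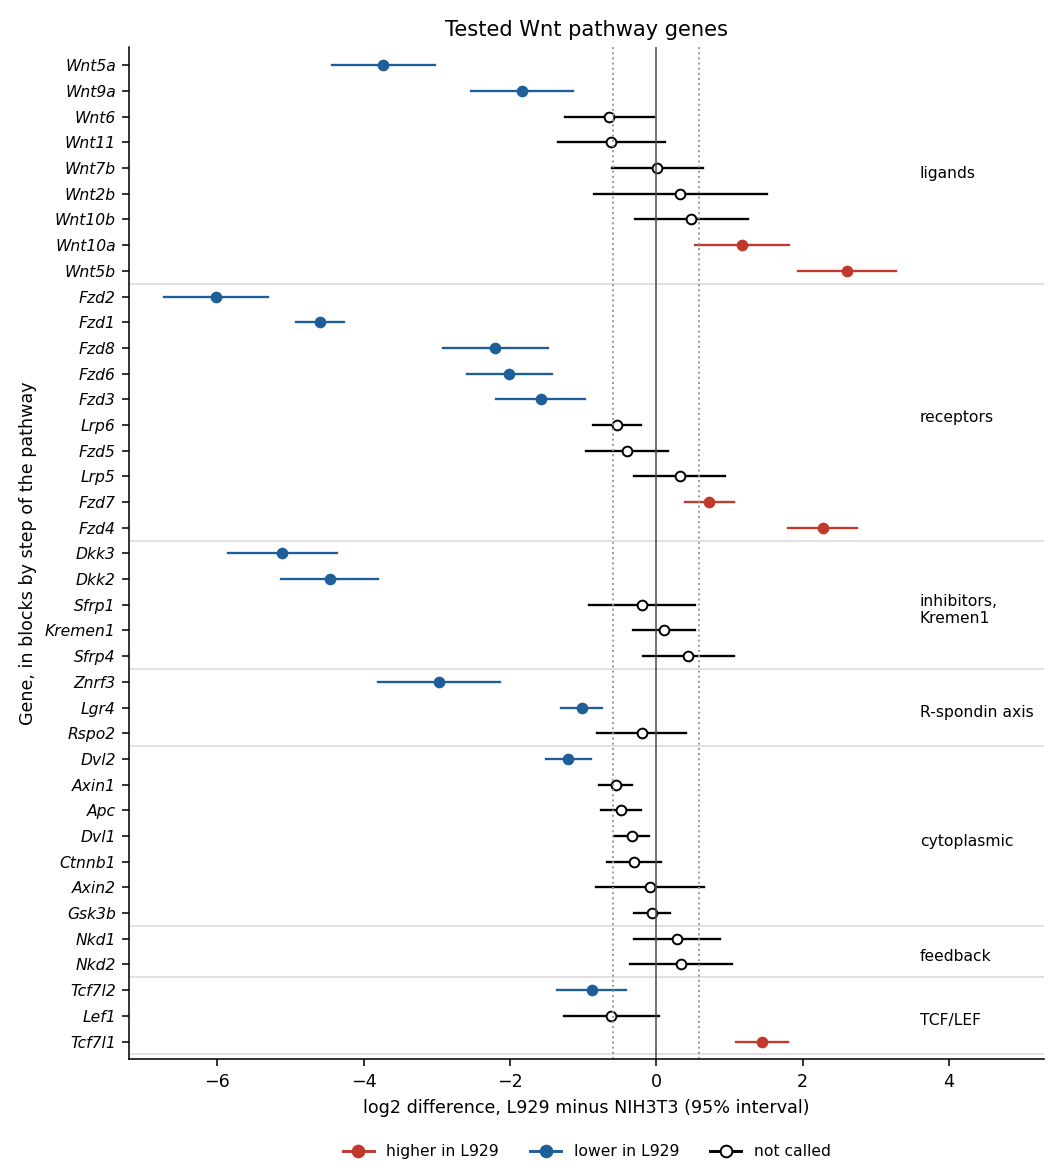
Log2 difference, L929 minus NIH3T3, of the 39 tested genes with limma's 95% interval, in blocks by step of the pathway. Filled points were called, open points were not, and dotted lines mark a fold of 1.5; the receptors spread most widely, between -6.01 for Fzd2 and 2.28 for Fzd4, and the cytoplasmic genes lie between -1.20 and -0.06.

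Of the 5 tested genes among the secreted inhibitors and Kremen1, 2 Dickkopf genes were lower in L929 and 0 were higher. That is 40% lower, beside 17.6% of all genes tested. Both Dickkopf genes passed the filter through NIH3T3 alone, where 50.9% of all genes were called. Dkk2, which binds LRP5 and LRP6, had signals of 2.39 and 0.913 in L929 and 169 and 248 in NIH3T3, and was at least 11.9-fold lower (adjusted p = 7.99e-06). Dkk3, the divergent member of the Dickkopf family, had 10.01 and 1.04 in L929 and 456 and 413 in NIH3T3, and was at least 25.2-fold lower (adjusted p = 7.18e-06). The arrays of the lines lay far apart for both genes, and a second Dkk3 probe set was at least 15.5-fold lower (12.0 and 10.4 in L929, 245 and 292 in NIH3T3). Without either NIH3T3 array that second probe set stood for the gene, and the Dkk3 log2 difference was -3.96 without replicate 1 and -3.72 without replicate 2, beside -5.11 on all arrays.

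The secreted Frizzled-related proteins, which bind Wnt outside the cell, and the Dickkopf receptor Kremen1 were not called. Sfrp4 had signals of 86.8 and 157 in L929 and 76.9 and 92.2 in NIH3T3, a log2 difference of 0.44 (-0.18 to 1.06). The L929 arrays of Sfrp4 were unlike each other, and it was called higher without replicate 1 of L929 (adjusted p = 0.0163). Sfrp1 was close to the filter level on all arrays, at 13.02 and 21.7 in L929 and 20.04 and 20.9 in NIH3T3. Kremen1 had 126 and 101 in L929 and 102 and 106 in NIH3T3, a log2 difference of 0.10 (-0.32 to 0.53).

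In the R-spondin axis, which protects Frizzled receptors from removal, 2 of the 3 tested genes, a receptor and a ligase, were lower in L929. Of all genes tested, 17.6% were lower. Znrf3 passed the filter through NIH3T3 alone, where 50.9% of all genes were called. Lgr4, a receptor of R-spondins, had signals of 146 and 151 in L929 and 314 and 305 in NIH3T3, and was 2.03-fold lower (log2 difference -1.02, 95% interval -1.29 to -0.74, adjusted p = 2.25e-04). Znrf3, the membrane ubiquitin ligase that removes Frizzled from the surface and is itself induced by the pathway, had 1.70 and 7.999 in L929 and 70.4 and 114 in NIH3T3, and was at least 5.19-fold lower (adjusted p = 2.70e-04). Replicates lay close together for Lgr4 and less so for Znrf3, whose L929 arrays were both below the filter level. Rspo2, a ligand of the axis, was dim and not called, at 30.9 and 35.4 in L929 and 43.4 and 35.1 in NIH3T3.

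Of the 7 tested genes of the intracellular core, 1 was called (14.3%, beside 34.8% of all genes tested). Their log2 differences lay between -1.20 and -0.06. Dvl2, a Dishevelled scaffold, had signals of 113 and 123 in L929 and 271 and 293 in NIH3T3, and was 2.30-fold lower (log2 difference -1.20, 95% interval -1.51 to -0.89, adjusted p = 1.69e-04). Its second probe set was 1.72-fold lower. Dvl1 had 377 and 365 in L929 and 446 and 495 in NIH3T3, a log2 difference of -0.34 (-0.57 to -0.10) that passed the p-value (adjusted p = 0.0271) and not the fold. On the probe sets that stood for these 2 Dishevelled genes the arrays of the lines did not overlap, nor did they for 73.8% of all genes tested. Another Dvl1 probe set overlapped, at 299 and 336 in L929 and 329 and 369 in NIH3T3 (log2 difference -0.13), and was not called.

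Axin1 and Apc, scaffolds of the destruction complex, lay just under the fold threshold. Axin1 had signals of 357 and 361 in L929 and 547 and 514 in NIH3T3, a log2 difference of -0.55 (-0.78 to -0.33, adjusted p = 0.00197). Apc had 309 and 266 in L929 and 428 and 382 in NIH3T3, a log2 difference of -0.48 (-0.76 to -0.21, adjusted p = 0.0106). Both were lower on every L929 array, 1.47-fold for Axin1 and 1.40-fold for Apc. Axin1 was called lower without NIH3T3 replicate 2 (adjusted p = 0.00521) and Apc without L929 replicate 1 (adjusted p = 0.00968).

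Ctnnb1, which encodes beta-catenin, and the kinase gene Gsk3b were not called. Ctnnb1 had signals of 3532 and 3539 in L929 and 4937 and 3875 in NIH3T3, a log2 difference of -0.31 (-0.68 to 0.06, adjusted p = 0.155). A further Ctnnb1 probe set, 888 and 955 in L929 and 1349 and 1385 in NIH3T3, was 1.48-fold lower, also under the fold threshold. Gsk3b had 368 and 410.1 in L929 and 423 and 388 in NIH3T3, and its interval of -0.31 to 0.19 lay within a 1.5-fold change. Axin2, an inhibitor and widely used target of the canonical branch, was dim, at 26.3 and 19.0 in L929 and 18.7 and 30.8 in NIH3T3, with a wide interval (-0.82 to 0.66). Its arrays overlapped, so that neither a rise nor a fall of 1.5-fold was excluded for Axin2.

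Of the 3 tested TCF/LEF factors, Tcf7l1 was higher and Tcf7l2 lower in L929. Tcf7l1, which acts mostly as a repressor of pathway targets, had signals of 264 and 319 in L929 and 95.9 and 108 in NIH3T3, and was 2.72-fold higher (log2 difference 1.45, 95% interval 1.09 to 1.80, adjusted p = 1.22e-04), and its other probe set was 2.95-fold higher. The call of Tcf7l1 was lost without scaling (adjusted p = 0.0528). Tcf7l2 had 50.8 and 57.4 in L929 and 102 and 112 in NIH3T3, and was 1.85-fold lower (log2 difference -0.88, 95% interval -1.35 to -0.42, adjusted p = 0.0076), and its 4 probe sets all lay on that side. Lef1 had 16.6 and 21.1 in L929 and 31.5 and 34.5 in NIH3T3, a log2 difference of -0.62 (-1.27 to 0.03, adjusted p = 0.109), and was called lower without the mean-variance trend (adjusted p = 0.0307).

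The feedback adaptors Nkd1 and Nkd2, which bind Dishevelled and restrain the pathway, were not called on the probe sets that stood for them. Nkd1 had signals of 52.2 and 62.4 in L929 and 38.8 and 53.6 in NIH3T3 on that probe set. Another Nkd1 probe set had 90.2 and 84.0 in L929 and 4.90 and 3.53 in NIH3T3 (adjusted p = 7.03e-05 over all probe sets tested), and a further one 47.0 and 52.8 against 19.8 and 13.7 (adjusted p = 0.00873). All 4 tested Nkd1 probe sets were higher in L929, by 0.28 to 2.96 on the log2 scale, and averaged together they were called (log2 difference 1.29, adjusted p = 0.00285). Nkd2 had 19.4 and 24.8 in L929 and 14.1 and 17.5 in NIH3T3, a log2 difference of 0.34 (-0.36 to 1.03).

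Probe sets of the same gene mostly lay on the same side. Of the 110 probe sets 77 were tested, of which 11 were called higher and 25 lower. Of all 27438 probe sets tested, 4091 (14.9%) were higher and 4582 (16.7%) lower. Several of the called probe sets read the same gene, with 3 lower for each of Fzd2, Wnt5a and Tcf7l2. They are not independent, and this count adds nothing to the count of genes. Among the 21 genes with several tested probe sets, Fzd6 was called in both directions: 2 probe sets were lower in L929 and another, 23.1 and 30.0 in L929 against 8.34 and 2.98 in NIH3T3, was higher (adjusted p = 0.0117). Of the 4 Wnt5a probe sets 3 were called lower, with log2 differences between -3.73 for the brightest and -0.42 for the one not called. Apc had 1 probe set called lower, at 60.5 and 65.0 in L929 and 128 and 138 in NIH3T3 (log2 difference -0.996, adjusted p = 0.00278), and 2 others were not called, at 0.06 and 0.04. A probe set reads a stretch near the end of a transcript, and which transcripts each of these reads was not tested.

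**Figure D3:**
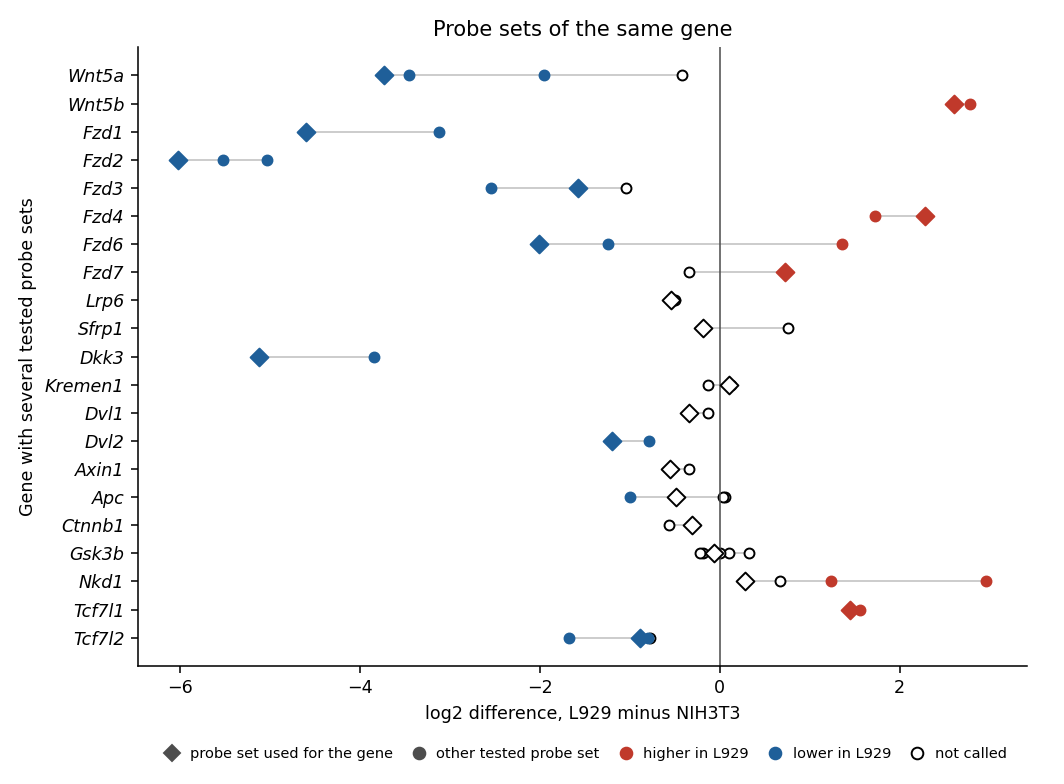
Log2 difference, L929 minus NIH3T3, of every tested probe set of the 21 genes with several, joined by a line for each gene. Diamonds mark the probe set used for the gene, colours mark calls and open points were not called; the points of Fzd6 lie on both sides of 0, and those of Nkd1 run from 0.28 to 2.96.

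Other genes of the pathway were taken from lists that hold 108 genes in all. Calls were made for 36 of the 82 that could be tested, 11 of them higher in L929 and 25 lower, or 43.9%, beside 34.8% of all genes tested, with a median log2 difference of -0.21. These lists, too, were chosen with earlier results known, and the count depends in part on the filter. Cthrc1, Tpbg, Gpc4, Ror1, Ror2, Ptk7, Dact1, Frat2, Tle2, Tle4, Twist1 and Nrcam, all called lower, passed it through NIH3T3 alone. Of all genes of that kind 50.9% were called. Ndp, Rnf43 and Mmp7, called higher, passed through L929 alone, where 47.4% of all genes were called. Among the remaining ligands, receptors and secreted regulators 3 of 12 were higher and 3 lower (25% each), beside 17.3% and 17.6% of all genes tested. Ndp, which encodes norrin, the ligand of Fzd4 that is no Wnt, had signals of 169 and 183 in L929 and 14.3 and 16.2 in NIH3T3, at least 10.2-fold higher (adjusted p = 1.78e-05). Rnf43, the paralogue of Znrf3, had 57.6 and 44.9 in L929 and 1.10 and 1.50 in NIH3T3, at least 2.95-fold higher (adjusted p = 2.09e-04). So Ndp was higher in the line with the higher Fzd4 signal, and Rnf43 and Znrf3 went in opposite directions.

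The remaining gene of that list to be higher was Lgr6, a relative of Lgr4, at 91.1 and 79.0 in L929 and 17.6 and 42.6 in NIH3T3, a call lost without scaling (adjusted p = 0.0608). Lower in L929 were the membrane glycoprotein gene Tpbg, at least 44.6-fold, the glypican Gpc4, 8.93-fold (L929 replicate 2 alone was above the filter level), and the secreted protein gene Cthrc1, at least 4.54-fold. Tpbg had signals of 5.40 and 12.0 in L929 and 736 and 803 in NIH3T3, and its 3 probe sets were all called lower. Porcn and Wls, needed to modify and release Wnt proteins, were not called. Wls had signals of 1187 and 1041 in L929 and 1060.1 and 1170.3 in NIH3T3, with an interval of -0.26 to 0.25 on the log2 scale.

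Of 15 tested genes of the non-canonical receptors and planar polarity, 6 were lower (40%, beside 17.6% of all genes tested) and 0 higher. Of the 6, 3 (Ptk7, Ror1 and Ror2) passed the filter through NIH3T3 alone, where 50.9% of all genes were called. Ptk7, a receptor-like protein of planar polarity, had signals of 1.93 and 5.90 in L929 and 105 and 108 in NIH3T3, and was at least 6.16-fold lower (adjusted p = 4.88e-05). Ror2, a receptor of Wnt5a, had 15.8 and 2.62 in L929 and 125 and 121 in NIH3T3, and was at least 7.12-fold lower (adjusted p = 3.25e-04). Its relative Ror1 was at least 4.24-fold lower and Invs, which encodes inversin, 2.59-fold lower. The arrays of Ror2 and Ptk7 in L929 were all below the filter level. The Ror1 call was lost without NIH3T3 replicate 1 (log2 difference -0.43) or replicate 2 (-0.35), where another Ror1 probe set stood for the gene. The call of Intu, a planar polarity effector singled out after its values were seen, did not hold its direction. Intu had signals of 18.3 and 32.5 in L929 and 46.5 and 62.8 in NIH3T3 (log2 difference -0.93, adjusted p = 0.0381), with 1 of its probe sets called lower and 1 higher, and it was called higher without NIH3T3 replicate 2 (log2 difference 1.10, adjusted p = 0.0318).

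Among cytoplasmic regulators 2 of 21 were higher and 7 lower (9.52% and 33.3%), beside 17.3% and 17.6% of all genes tested. Dact1, which binds Dishevelled, was 7.29-fold lower (L929 replicate 1 alone was above the filter level), the GSK3-binding gene Frat2 at least 3.23-fold lower, the casein kinase Csnk1g3 2.16-fold lower and Gsk3a 1.75-fold lower, a call of Gsk3a that was lost without NIH3T3 replicate 2. Cxxc5, which binds Dishevelled, was 2.85-fold higher, and the beta-catenin antagonist Cby1 1.69-fold higher, a call lost without scaling. Among nuclear cofactors 2 of 17 were higher and 5 lower (11.8% and 29.4%). The co-repressors of the Groucho family Tle1 and Tle2 were 2.47-fold and 2.75-fold lower and Tle4 at least 4.05-fold lower, with L929 replicate 2 alone above the filter level for Tle2, although the call of Tle4 was lost without NIH3T3 replicate 1, where another probe set stood for the gene. The beta-catenin partner Bcl9 was 2.28-fold lower, and its paralogue Bcl9l and the co-repressor Ctbp2 were 1.67-fold and 1.74-fold higher, calls lost without scaling, that of Bcl9l also without L929 replicate 2 and by the mean of its probe sets (log2 difference 0.17, adjusted p = 0.462).

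Of 15 tested genes often cited as targets of the canonical branch, 4 were higher and 4 lower, 26.7% each. Of all genes tested, 17.3% were higher and 17.6% lower. Ccnd1, which encodes cyclin D1, had signals of 4587 and 4688 in L929 and 1915 and 1842 in NIH3T3, 2.46-fold higher (adjusted p = 6.19e-05). The secreted factor Ccn4 was 2.05-fold higher, Myc 1.58-fold higher and Mmp7 at least 1.47-fold higher, and these 3 calls were lost, or in Mmp7 not tested, without scaling. Twist1, a mesenchymal transcription factor, had 1.76 and 5.20 in L929 and 190.1 and 250.2 in NIH3T3, and was at least 12.6-fold lower (adjusted p = 8.28e-06). Sox9 was 5.51-fold lower, Jun 2.37-fold lower and Nrcam at least 1.47-fold lower. The arrays of the lines were far apart for Ccnd1 and Twist1, whereas Mmp7 and Nrcam stood close to the filter level and their calls were lost without L929 replicate 2, without NIH3T3 replicate 1 and with no filter. The Mmp7 call was also lost without NIH3T3 replicate 2, as was that of Myc, which was further lost without L929 replicate 2. All of these targets answer to other pathways too.

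**Figure D4:**
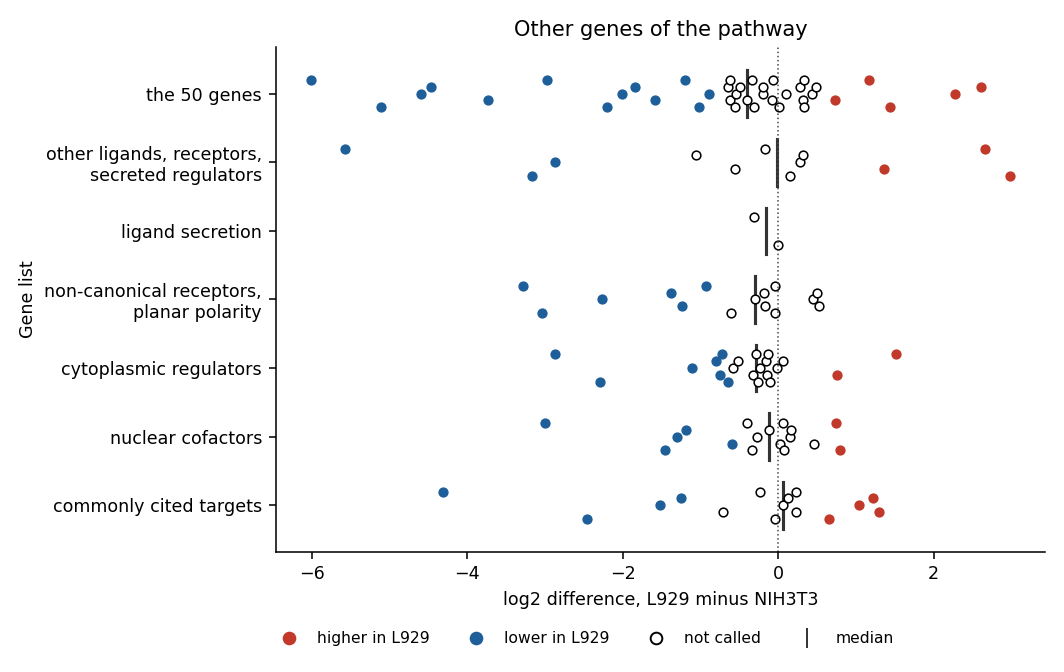
Log2 difference, L929 minus NIH3T3, of the tested genes among the 50 and in 6 lists of other pathway genes, with the median of each list as a bar; heights within a list serve only to separate points. Filled points were called; the list of non-canonical receptors and planar polarity holds 6 genes called lower and 0 higher, of which Intu turned to a higher call without NIH3T3 replicate 2, and the list of targets holds 4 of each.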

How the data were processed

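RNA of 2 L929 and 2 NIH3T3 samples was measured on Affymetrix Mouse Genome 430 2.0 arrays, after Trizol and RNeasy extraction and biotin labelling per the labels' protocols. The deposited values are 1 intensity per probe set and array, on a linear scale from the values and made with MAS5 per the submitters' processing notes; a MAS5 version, target intensity or build is not given in the sources used here. Each array was scaled to a common mean that trims 2% at each end over the non-control probe sets (factors 1.07 and 1.14 for L929, 1.13 and 0.726 for NIH3T3). An offset of 8.01, the 25th percentile of the scaled signals, was added before log2. The filter level of 17.3 is their 40th percentile and not a measured detection limit. A gene was represented by its tested probe set with the highest mean log2 value, taken from probe sets with 1 symbol (34945 with 1, 932 with several, 9160 with none), and 34741 of the first were matched to the gene table of GRCm38.p6, which changed 0 symbols. The comparison of L929 with NIH3T3 used lmFit and eBayes with a mean-variance trend in limma 3.58.1 and R 4.3.3, over all genes or all probe sets, and was tested on simulated data. The thresholds are those of the submitters' design text. A fold is the difference of log2(signal + offset), which understates the change of dim genes. Where both arrays of a line lay below the level, "at least" gives the other line's mean log2 signal against the level, with no offset. Values given over all arrays of a line are scaled signals of n = 2 arrays.

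The 50 genes and the further lists were chosen with earlier results of these data known. All 50 are accounted for; of the further lists up to 4 called genes per direction are named, those with the largest difference. Same-numbered arrays of the lines deviated from their line means with r = 0.014, so the numbers were not taken to pair the samples. Alternatives were other scalings, offsets, filters, variance prior, probe set summary, the replicate number as a block, and each array left out. Promoter letters come from RefSeq windows; the array files name no build, so no other coordinates are given.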

Additional observations from a re-analysis of the deposited data

How the results depend on the processing

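Of the 18 called Wnt pathway genes, 14 were called in the same direction under each of the 15 alternatives in which they were tested; the exceptions were Wnt10a, Fzd6, Fzd7 and Tcf7l1, and the stricter filter left Wnt9a, Wnt10a and Fzd8 untested. Without scaling, the genes higher in L929 numbered 2 in place of 5 and the other pathway genes higher in L929 numbered 4 in place of 11; NIH3T3 replicate 2 is brighter as deposited, and all genes then had a median log2 difference of -0.26. With an array left out, its line has 1 array, which is assumed to vary like the other line. When each array was left out in turn, 4 to 7 of the 50 genes were higher and 13 to 15 lower, 9 to 12 other pathway genes were higher and 20 to 25 lower, and 33 to 40 probe sets of the 50 genes were called. With the replicate block, 5 were higher and 13 lower, as without it, with 11 and 25 other pathway genes and 37 probe sets called, and no call among the 50 genes changed. Wnt4, not tested on all arrays, was called higher without L929 replicate 1 (log2 difference 1.47) through another probe set, which had 7.14 and 37.3 in L929 and 8.395 and 8.06 in NIH3T3. Wnt6, with 1 tested probe set, kept its difference of -0.64 when other genes were given the mean of their probe sets, and its adjusted p was then 0.0498. Among the 50 genes, signs turned in 6 genes that had not been called. Leaving out 1 array gave a log2 range of -0.49 to 1.15 for Wnt2b, -0.28 to 0.31 for Wnt7b, -0.44 to 0.35 for Sfrp1, -0.042 to 0.25 for Kremen1, -0.35 to 0.19 for Axin2 and -0.14 to 0.017 for Gsk3b. Without scaling Wnt7b was -0.25 and Kremen1 -0.16, by the mean of its probe sets Sfrp1 was 0.29, and with median scaling Gsk3b was 0.0017. Of the 36 called genes on the other pathway lists, 20 were called wherever tested; Intu, called lower at -0.93, was 0.05 by the mean of its probe sets, 0.79 without NIH3T3 replicate 1 and 1.10, called higher, without NIH3T3 replicate 2, where in both cases another of its probe sets stood for the gene. The cause was not tested. Values of genes below the level in 1 line follow the offset: Dkk2 ranged from -6.34 with an offset of 1 to -2.82 with an offset of 32, and stayed called. Signals near the level of 17.3 limit what can be said of the dim ligands.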
